A study of Homo sapiens with 8 samples.

Results

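The genes described here are 33 genes of the ATF4 response and of tRNA charging, out of the 36337 gene names on the array. They are a list of names, drawn up with earlier results of these data known, and comprise 11 stress factors and their targets, 9 enzymes of serine, proline, asparagine and one-carbon metabolism, and 13 genes of cytosolic tRNA charging (12 aminoacyl-tRNA synthetases and XPOT, which exports tRNA from the nucleus). The 33 genes were measured by 46 of the 50599 probes. FT293 cells are Flp-In T-REx derivatives of HEK293, a human embryonic kidney line, in which a transgene placed by Flp recombinase at a single genomic site is switched on by tetracycline. RNA of 4 such lines, expressing GFP alone, GFP-HuR, GFP-TIA1 or GFP-TIAR, was taken on day 3 of tetracycline and hybridized to 8 one-colour arrays, 2 biological replicates per line. TIA1, TIAR and HuR are RNA-binding proteins. The comparisons ask how the abundance of these mRNAs differed between cells expressing GFP-TIA1 or GFP-TIAR and cells expressing GFP-HuR or GFP. The paper reports that ectopic TIA1 or TIAR depleted the endogenous TIA proteins, and that ectopic HuR lowered endogenous HuR. All lines received tetracycline and carried a GFP tag, and each protein was represented by 1 isogenic line, so that a protein and its line cannot be told apart.

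ATF4 is a transcription factor whose mRNA is preferentially translated when initiation factor eIF2 is phosphorylated on its alpha subunit, as happens on amino acid shortage, endoplasmic reticulum stress, viral infection or haem deficiency. With C/EBP-family partners it raises transcription of further stress factors (ATF3, DDIT3, TRIB3), of enzymes that make serine, asparagine and proline, and of cytosolic synthetases, which join each amino acid to its tRNA. PPP1R15A, itself a target, brings protein phosphatase 1 to eIF2 and closes the loop.

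The composite C/EBP-ATF element through which ATF4 is known to act is printed first, because it is the sequence that part of these genes share apart from their names. All 33 genes matched 1 RefSeq gene each (GRCh38.p14), and 27 had a promoter, from 250 bases before to 50 bases after a start, in the RefSeq table used. PSPH, SHMT2, PYCR1, NUPR1, LARS and YARS had none in it. The letters TGATGNAA, searched on both strands and counted once per gene, occurred in 10 of the 27 (37.0%) and in 1217 of 27305 genes of the whole table (4.46%). They occurred in 7 of 11 charging genes (63.6%; AARS, CARS, GARS, IARS, MARS, NARS and TARS), in 2 of 10 stress genes (ATF3 and CHAC1) and in 1 of 6 enzymes (ASNS). Genes named as ATF4 targets were in part named for this element, so the shares are a description only. In 6 of the 10 the match lay wholly before the start, and these are given below 5′ to 3′ on the strand of the gene, with the match in capitals and up to 16 bases on either side in lower case. A match on the opposite strand reads as its reverse complement.
ASNS (chr7:97872453-97872492, minus strand): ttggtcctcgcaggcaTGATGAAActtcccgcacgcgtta
ATF3 (chr1:212565200-212565239, plus strand): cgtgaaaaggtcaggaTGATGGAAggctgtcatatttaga
CHAC1 (chr15:40953246-40953285, plus strand): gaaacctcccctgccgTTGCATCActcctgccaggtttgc
AARS (chr16:70289670-70289709, minus strand): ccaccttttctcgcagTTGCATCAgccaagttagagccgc
GARS (chr7:30594829-30594868, plus strand): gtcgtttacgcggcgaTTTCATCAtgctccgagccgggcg
IARS (chr9:92293698-92293726, minus strand): ccgcattttcagcgcgTTGCATCAcctcc

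The matches of ASNS, GARS and IARS began 68, 33 and 13 bases before the start, and those of ATF3, CHAC1 and AARS 191, 209 and 187 bases before it. CHAC1, AARS and IARS held the same 8 letters, TTGCATCA. The cyclic AMP response element TGACGTCA, searched likewise, occurred in 1 of the 27 genes (3.7%), PPP1R15A, which held no TGATGNAA match, against 2.25% of all genes. A CCAAT box, searched as CCAAT on both strands, occurred in 15 of the 27 (55.6%) against 39.7% of all genes.

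The array measures each mRNA with a 60-base probe. The probes of 4 of the genes on which the comparisons turn are given in the sense of the mRNA, with positions on hg19 from the array design. Those of PCK2 and GARS run across an exon junction, so their start and end enclose an intron, whereas those of AARS and YARS lie in 1 stretch of genome.
PCK2 (NM_004563, chr14:24569401-24571999, plus strand): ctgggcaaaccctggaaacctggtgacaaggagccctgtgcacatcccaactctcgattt
GARS (NM_002047, chr7:30665891-30668190, plus strand): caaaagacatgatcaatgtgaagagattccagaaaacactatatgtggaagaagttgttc
AARS (NM_001605, chr16:70287876-70287935, minus strand): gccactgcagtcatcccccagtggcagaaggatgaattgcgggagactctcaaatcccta
YARS (NM_003680, chr1:33245799-33245858, minus strand): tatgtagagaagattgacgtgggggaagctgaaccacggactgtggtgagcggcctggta

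Levels below are log2 of the scanner's processed signal relative to the 75th percentile of the array, so that 0 is the signal of a fairly bright probe, and differences between lines are log2 fold changes with the standard error of the limma fit. A gene was called where it differed 2-fold or more with a p under 0.05 after adjustment over all probes tested in that comparison. Each gene is given by its tested probe with the highest mean signal. These 33 probes were well above background on all 8 arrays and all were tested in each of 6 comparisons. One array stood apart. On GFP 1, 86.0% of probes were well above background against 53.2% to 58.5% on the other 7, and its mean local background was 90.0 intensity units against 37.4 to 43.5. On it, 31 of the 33 genes read lower than on GFP 2, with a median difference between the replicates of 0.58 on the log2 scale, against 0.07 for HuR, 0.14 for TIA1 and 0.15 for TIAR. All arrays lay on 1 slide, each line in neighbouring positions, so that line and position cannot be told apart. Of 7 markers of HEK293 cells, 6 were well above background on all 8 arrays and NEFM on 7. Among genes of other cell types HBB and PECAM1 were above it on 1 array each, CD3E on 2, ALB on 6 and, by the best of 5 probes, PTPRC on 8.

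**Figure D1:**
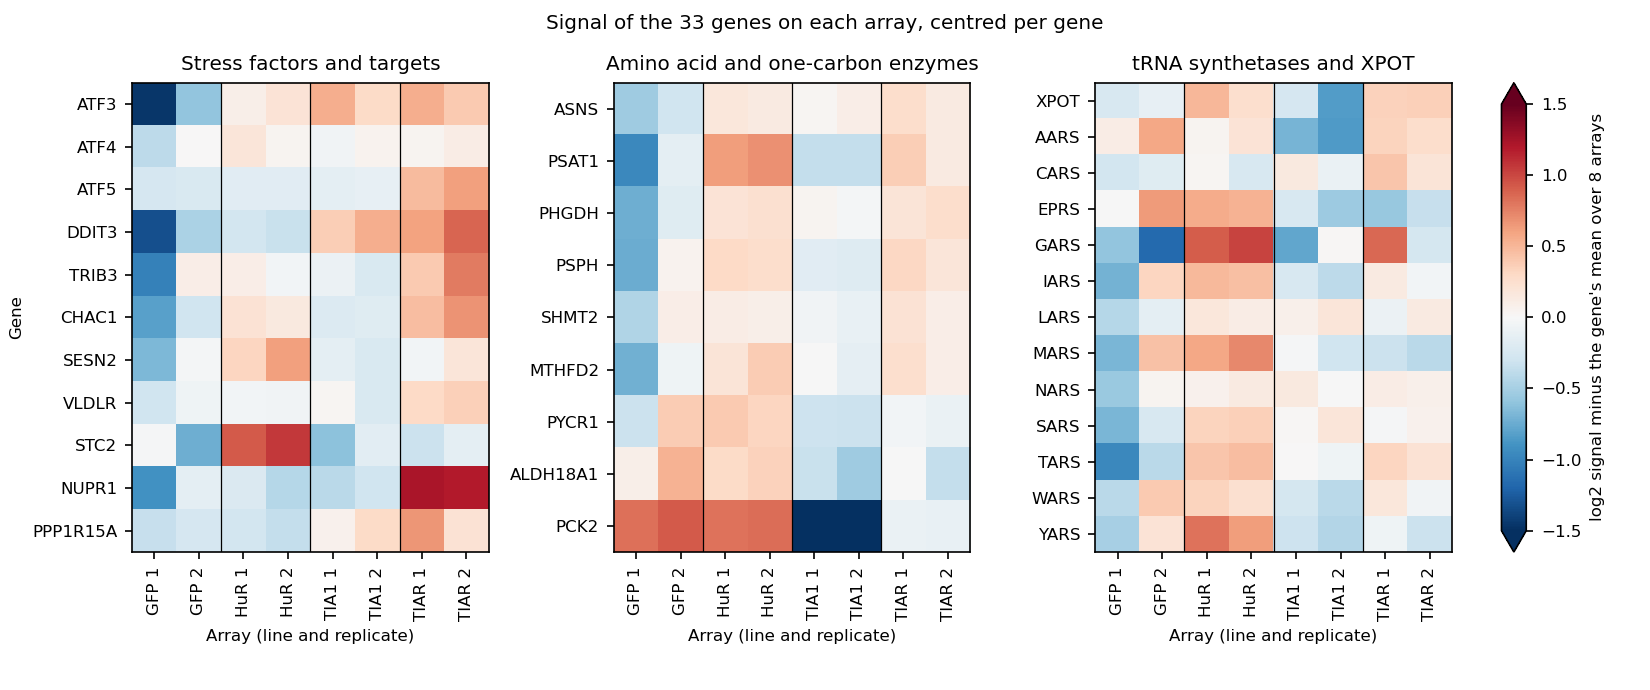
Heat map of the 33 genes (rows) on the 8 arrays (columns, line and replicate), in 3 panels for stress factors, enzymes and charging genes. Colour gives the log2 signal minus the gene's mean over 8 arrays, from blue (lower) to red (higher), with values beyond the ends of the scale drawn in the end colour. The charging genes are mostly red on the HuR arrays and blue on the TIA1 arrays, the stress factors are mostly red on the TIAR arrays, and GFP 1 is mostly blue.

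In TIA1-expressing cells 9 of the 13 charging genes and 5 of the 9 enzymes were lower than in HuR-expressing cells, while the stress factors that passed the test were divided. These counts are at an adjusted p under 0.05 and any fold, and none of the 22 genes was higher (limma; at an unadjusted p under 0.05 the numbers were 9 and 6 in either direction). Of the 11 stress genes, 3 were lower and 2, DDIT3 and PPP1R15A, were higher. The same direction and threshold held for 19.5% of all genes in the lower and 21.2% in the higher direction. The counts rested on both HuR arrays, while the median log2 fold changes stayed below 0 without either. The median was -0.77 over the charging genes without HuR 1 and -0.74 without HuR 2, and -0.44 and -0.48 over the enzymes. Without HuR 1, 2 charging genes, 2 enzymes and 1 stress gene were lower and 4.91% of all genes, and without HuR 2 the numbers were 1, 2 and 0 and 4.38%, with no stress gene higher either time. With no filter on dim probes 1 charging gene and 2 enzymes were lower (3.5% of all genes), and with all 8 arrays in 1 fit 2 and 1 (5.63%). At 2-fold, 5 of the 33 genes were called, each lower in TIA1-expressing cells (PCK2, STC2, GARS, YARS and PSAT1), against 5.3% of all genes called lower and 7.7% called higher. The median log2 fold change was -0.79 over the charging genes, -0.46 over the enzymes and -0.05 over the stress genes, and 0.03 over all genes tested.

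In TIAR-expressing cells the stress factors that passed the test were mostly higher than in HuR-expressing cells. The few enzymes and charging genes that passed it were lower. At an adjusted p under 0.05 and any fold, 5 of 11 stress genes were higher (ATF5, DDIT3, VLDLR, NUPR1 and PPP1R15A) and 1, STC2, was lower. Of the enzymes 2 of 9 were lower (PYCR1 and PCK2) and of the charging genes 3 of 13 (EPRS, MARS and YARS). For all genes these shares were 17.6% higher and 13.4% lower. Whether the groups differed in these counts was not tested. Without HuR 1 only 1 stress gene passed in the higher direction, and without HuR 2 none did, with no gene of the 33 lower in either case, against 2.25% and 1.76% of all genes higher and 0.302% and 0.219% lower. With no filter on dim probes 1 stress gene was higher and 1 gene of each group lower, and with all 8 arrays in 1 fit 2 stress genes were higher and 1 enzyme lower. At 2-fold the numbers over all genes fell as well in these settings. They went from 1522 higher and 659 lower to 1305 and 460 with no filter and 869 and 405 in 1 fit. At the same 2-fold threshold 4 of the 33 genes were called in the main setting, 3 with no filter and 1 in 1 fit. At 2-fold, NUPR1 and DDIT3 were called higher and STC2 and MARS lower, against 7.07% of all genes called higher and 3.06% called lower. The median log2 fold change was 0.39 over the stress genes, -0.11 over the enzymes and -0.23 over the charging genes, against 0.03 over all genes. With the authors' normalized values the enzyme median was 0.07 and the median of the charging genes -0.03, against -0.02 over all genes.

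**Figure D2:**
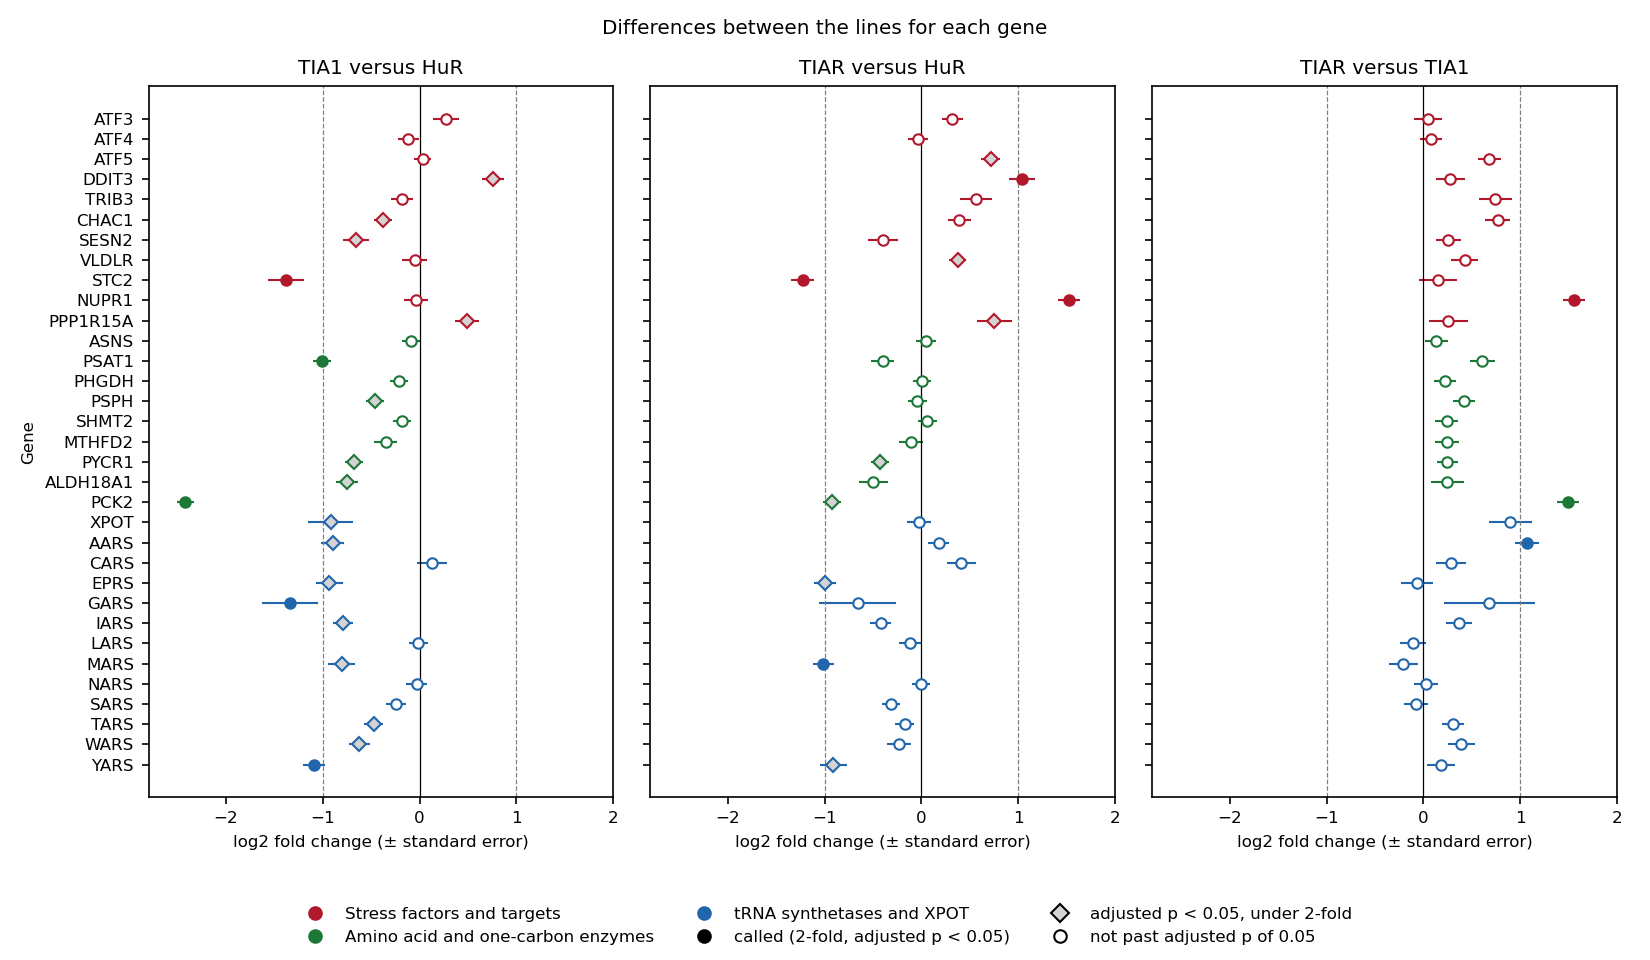
Log2 fold change (x axis, with its standard error) of each of the 33 genes (y axis) in the comparisons TIA1 versus HuR, TIAR versus HuR and TIAR versus TIA1. Filled circles are called genes, grey diamonds genes with an adjusted p under 0.05 and less than a 2-fold change, open circles the others, and dashed lines mark a 2-fold change. In the comparison of TIA1 with HuR, 28 of 33 genes lie left of 0, and in that of TIAR with TIA1, 29 of 33 lie right of 0.

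Among the stress factors, ATF4 mRNA itself was the most even. Its log2 signal was 7.45 and 7.86 on the GFP arrays, 8.03 and 7.89 in HuR-, 7.80 and 7.90 in TIA1-, and 7.89 and 7.96 in TIAR-expressing cells. The HuR, TIA1 and TIAR arrays overlapped, and the fitted difference was -0.12 ± 0.11 (standard error) for TIA1 against HuR and -0.04 ± 0.10 for TIAR against HuR. ATF4 is regulated chiefly in its translation, which these arrays do not measure.

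DDIT3, also called CHOP, is a C/EBP-family factor that acts late in the stress response and favours cell death. Its log2 signal was -0.07 and 0.77 on the GFP arrays, 0.97 and 0.91 on the HuR arrays, 1.61 and 1.79 on the TIA1 arrays and 1.84 and 2.12 on the TIAR arrays. The lines did not overlap, and both TIA lines lay above HuR and GFP. The difference from HuR was 1.04 ± 0.13 in TIAR-expressing cells (2.05-fold, adjusted p = 0.0120) and 0.76 ± 0.11 in TIA1-expressing cells (1.69-fold, adjusted p = 0.0105). The TIAR call was lost without TIAR 2 (0.90), without HuR 1 (1.07) and without HuR 2 (1.01), and after normexp correction, at 0.97 without and 0.98 with quantile normalization. At an unchanged 1.04 it was also lost with no filter on dim probes and with all 8 arrays in 1 fit.

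NUPR1 encodes a small stress-induced chromatin protein. It gave 1.83 and 2.59 on the GFP arrays, 2.52 and 2.30 on the HuR arrays, 2.32 and 2.43 on the TIA1 arrays, and 3.95 and 3.92 on the TIAR arrays. The TIAR arrays stood alone, above every other array, while GFP, HuR and TIA1 overlapped. NUPR1 was 2.88-fold higher than in HuR-expressing cells (1.52 ± 0.12, adjusted p = 0.00588) and 2.95-fold higher than in TIA1-expressing cells (1.56 ± 0.11, adjusted p = 0.0194). The call against HuR was lost without HuR 2, at a log2 fold change of 1.42, and that against TIA1 without any 1 of its 4 arrays, at values from 1.51 to 1.61.

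STC2, which encodes a secreted glycoprotein, ran the other way. Its signal was -0.61 and -1.32 on the GFP arrays, 0.33 and 0.48 on the HuR arrays, -1.20 and -0.75 on the TIA1 arrays, and -0.91 and -0.74 on the TIAR arrays. The HuR arrays lay above all others, and the other 3 lines overlapped. STC2 was 2.60-fold lower in TIA1-expressing cells (-1.38 ± 0.18, adjusted p = 0.00859) and 2.34-fold lower in TIAR-expressing cells (-1.23 ± 0.12, adjusted p = 0.00769) than in HuR-expressing cells. The TIA1 call was lost without HuR 2 (-1.31), and the TIAR call without HuR 1 (-1.30), without HuR 2 (-1.16) and with all 8 arrays in 1 fit (-1.23).

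Of the other stress genes, PPP1R15A, the phosphatase subunit that reverses eIF2 phosphorylation, was 1.41-fold higher in TIA1- and 1.68-fold higher in TIAR-expressing cells than in HuR-expressing cells (adjusted p = 0.0366 and 0.0452). ATF5, a relative of ATF4, differed from HuR by 0.71 ± 0.10 in TIAR-expressing cells (adjusted p = 0.0146) and by 0.03 ± 0.09 in TIA1-expressing cells. SESN2, which restrains mTORC1 signalling on leucine shortage, was lower in TIA1-expressing cells (-0.66 ± 0.13, adjusted p = 0.0227). CHAC1, which degrades glutathione, was lower in TIA1-expressing cells by 0.38 on the log2 scale, with a second probe at -0.50, and had a value of 0.39 ± 0.12 in TIAR-expressing cells (adjusted p = 0.0758). VLDLR, a lipoprotein receptor, was 1.30-fold higher in TIAR-expressing cells (adjusted p = 0.0465). TRIB3, a pseudokinase that DDIT3 induces, had a value of 0.56 ± 0.17 there (adjusted p = 0.0701). For ATF3 the brightest of 4 probes gave 0.27 ± 0.13 in TIA1- and 0.32 ± 0.11 in TIAR-expressing cells, neither past the threshold, and the other 3 ranged from -0.31 to 0.50 and from 0.02 to 0.47.

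Among the enzymes, PCK2 had the largest difference of the 33 genes. It encodes the mitochondrial phosphoenolpyruvate carboxykinase, which turns oxaloacetate into phosphoenolpyruvate. Its log2 signal was 0.35 and 0.44 on the GFP arrays, 0.33 and 0.35 on the HuR arrays, -2.10 and -2.05 on the TIA1 arrays and -0.57 and -0.59 on the TIAR arrays. GFP and HuR overlapped, TIAR lay below them, TIA1 lay below TIAR, and the replicates of each line lay close together. PCK2 was 5.34-fold lower in TIA1- than in HuR-expressing cells (-2.42 ± 0.09, adjusted p = 0.00174), a call that no left-out array removed. The difference between TIAR and HuR was -0.92 ± 0.09 (adjusted p = 0.00779), short of 2-fold. The direct comparison of TIAR with TIA1 gave 1.49 ± 0.11 (2.82-fold, adjusted p = 0.0194), and it lost its call without any 1 of the 4 arrays, at 1.47 to 1.52. For a second, dimmer PCK2 probe, which on the TIA1 arrays was not well above background, the level there was at least 2.04-fold lower than on the HuR arrays.

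PSAT1, the aminotransferase of the serine pathway, gave 3.67 and 4.48 on the GFP arrays, 5.26 and 5.31 on the HuR arrays, 4.27 and 4.28 on the TIA1 arrays, and 5.00 and 4.77 on the TIAR arrays. HuR was above all other arrays and TIA1 below both TIAR arrays, while GFP spanned the TIA1 values. The difference of TIA1 from HuR was -1.01 ± 0.09 (2.02-fold, adjusted p = 0.00403), with a second probe at -1.21 ± 0.15 that was also called. The fold change lay at the threshold of 2. It was -0.98 without HuR 2, -0.94 after quantile normalization and -0.98 after normexp correction with quantile normalization, each without a call, and the call was also lost with all 8 arrays in 1 fit (-1.01).

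The other enzymes that passed the adjusted p without reaching 2-fold in TIA1-expressing cells were ALDH18A1 (-0.75 ± 0.11) and PYCR1 (-0.68 ± 0.09), the first and last enzymes of proline synthesis from glutamate, and PSPH (-0.46 ± 0.09), the phosphatase that completes serine. A second PYCR1 probe was called at -1.07 ± 0.18. PHGDH, which commits carbon to serine, had a value of -0.22 ± 0.09. ASNS, which makes asparagine, had -0.09 ± 0.09, and the mitochondrial folate enzymes SHMT2 and MTHFD2 had -0.18 ± 0.09 and -0.35 ± 0.12, all 4 short of the threshold. All 9 fitted values were below 0 in TIA1-expressing cells, also under normexp, quantile normalization, both together and the authors' values. In TIAR-expressing cells PYCR1 was lower than in HuR-expressing cells (-0.43 ± 0.09, adjusted p = 0.0353), and the fitted values of the 9 enzymes ran from -0.92 to 0.06.

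**Figure D3:**
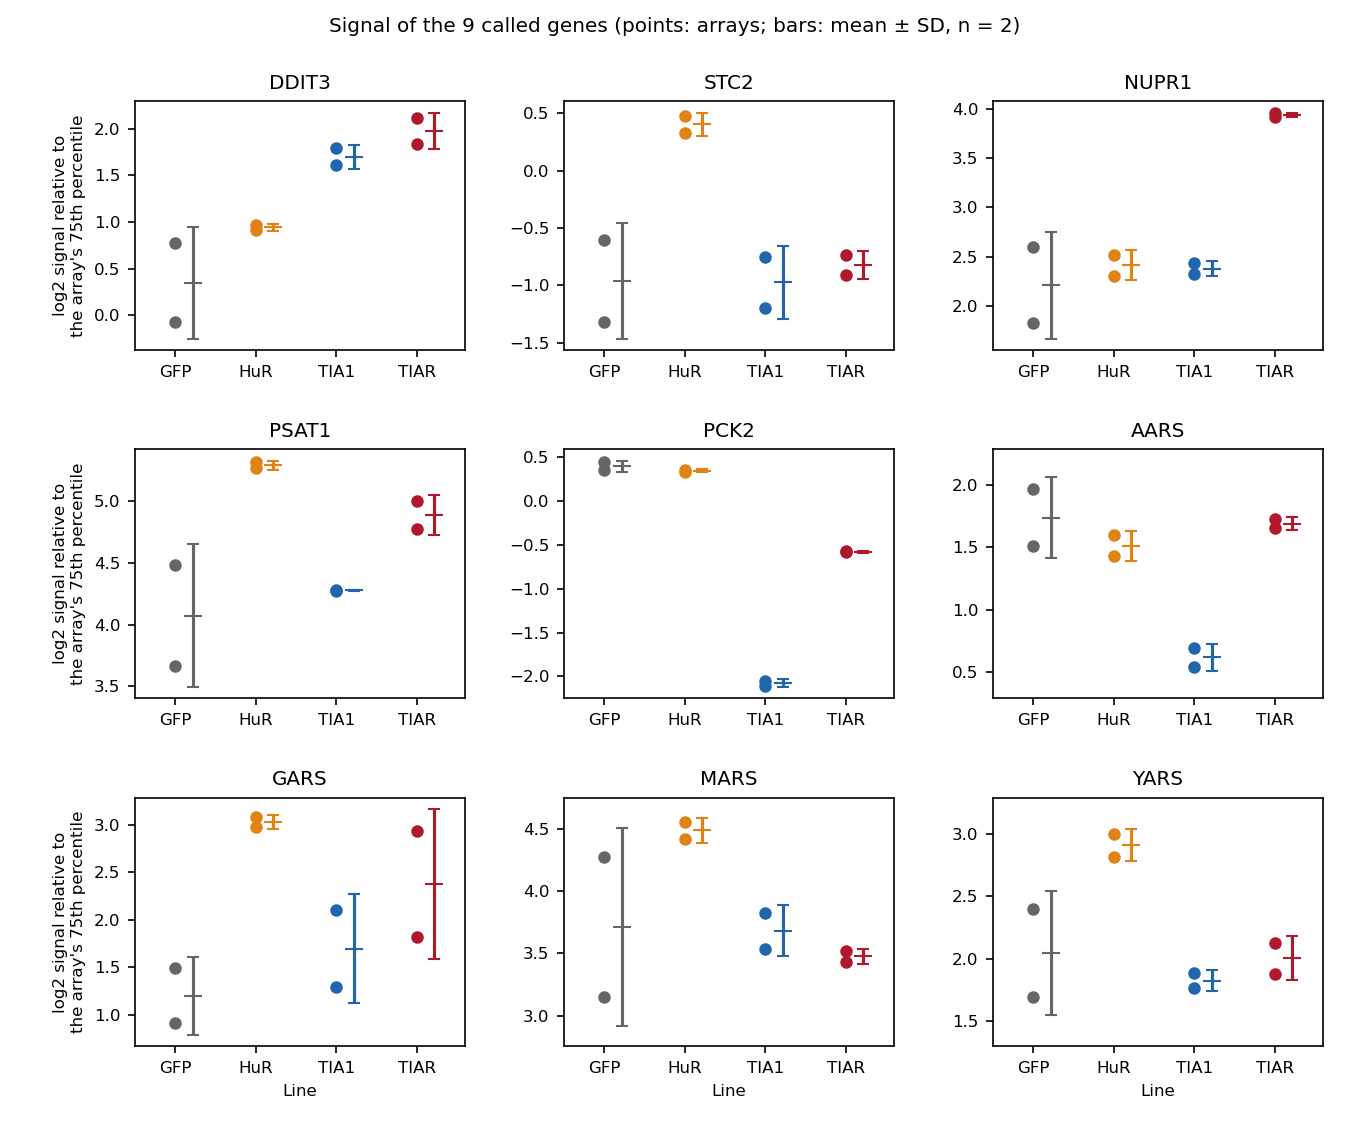
Log2 signal relative to the array's 75th percentile (y axis, its own range in each panel) of the 9 genes called in at least 1 comparison, by line (x axis). Points are the 2 arrays of a line and bars the mean ± SD. PCK2 is lowest in TIA1-expressing cells, NUPR1 highest in TIAR-expressing cells, and STC2, PSAT1, GARS, MARS and YARS highest in HuR-expressing cells.

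Among the synthetases, YARS, which charges tyrosine, had a log2 signal of 1.69 and 2.40 on the GFP arrays, 3.01 and 2.82 on the HuR arrays, 1.88 and 1.76 on the TIA1 arrays, and 2.13 and 1.88 on the TIAR arrays. HuR was above all others, and GFP, TIA1 and TIAR lay in one range. YARS was 2.13-fold lower in TIA1-expressing cells (-1.09 ± 0.12, adjusted p = 0.00549), a call lost without HuR 1 (-0.998). In TIAR-expressing cells the difference from HuR was -0.91 ± 0.14 (adjusted p = 0.0173), and it was called without TIAR 1 (-1.04) and after normexp correction (-1.06).

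GARS, the glycine enzyme, varied most of the 33 genes between the replicates of TIA1 and of TIAR. It gave 1.49 and 0.91 on the GFP arrays, 2.98 and 3.09 on the HuR arrays, 1.29 and 2.10 on the TIA1 arrays, and 2.94 and 1.82 on the TIAR arrays. All TIA1 and GFP arrays lay below HuR, and 1 TIAR array lay close to HuR and the other among the TIA1 values. The difference of TIA1 from HuR was -1.34 ± 0.29 (2.53-fold, adjusted p = 0.0267). The call was lost without TIA1 1 (-0.93), without HuR 1 (-1.39), without HuR 2 (-1.29) and, at an unchanged -1.34, with no filter on dim probes and with all 8 arrays in 1 fit, whereas the TIAR comparison, at -0.66 ± 0.40, gained one without TIAR 1.

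AARS, the alanine enzyme, separated TIA1 from all other lines. It gave 1.51 and 1.97 on the GFP arrays, 1.43 and 1.60 on the HuR arrays, 0.70 and 0.54 on the TIA1 arrays, and 1.73 and 1.65 on the TIAR arrays. Both TIA1 arrays lay below the other 6, which overlapped apart from HuR and TIAR. AARS was 2.10-fold higher in TIAR- than in TIA1-expressing cells (1.07 ± 0.12, adjusted p = 0.0332), and 1.86-fold lower in TIA1- than in HuR-expressing cells (-0.90 ± 0.12, adjusted p = 0.00845). Without any 1 of the 4 arrays the call of TIAR against TIA1 was lost, at values from 1.00 to 1.15.

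MARS, the methionine enzyme, had 3.15 and 4.28 on the GFP arrays, 4.42 and 4.56 on the HuR arrays, 3.83 and 3.54 on the TIA1 arrays, and 3.52 and 3.43 on the TIAR arrays. HuR was highest, both TIA lines lay between the GFP arrays, and TIAR lay just below TIA1. The difference from HuR was -1.01 ± 0.11 in TIAR-expressing cells (2.02-fold, adjusted p = 0.00876) and -0.81 ± 0.14 in TIA1-expressing cells (adjusted p = 0.0158). The TIAR call was lost without TIAR 2 (-0.97), without HuR 1 (-1.08), without HuR 2 (-0.94), after quantile normalization (-0.92), with the authors' values (-0.94) and with all 8 arrays in 1 fit (-1.01). A second MARS probe (chromosome 12, 57884057 to 57884116, hg19) had -0.30 ± 0.11 with TIAR and -0.39 ± 0.12 with TIA1, neither past the threshold. The brighter probe lies at chromosome 12, 57910373 to 57910432, and the DDIT3 probe at 57911200 to 57911526 on the opposite strand. In RefSeq the genes MARS and DDIT3 overlap by 65 bases, and whether the brighter probe lies in the overlap was not tested.

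The remaining charging genes that passed the adjusted p in TIA1-expressing cells were EPRS (-0.93 ± 0.14), which charges both glutamate and proline, XPOT (-0.92 ± 0.23), IARS (-0.79 ± 0.10), WARS (-0.62 ± 0.11) and TARS (-0.48 ± 0.09). EPRS and XPOT reached 2-fold, with a call, without TIA1 1 (-1.08 and -1.21) and after normexp correction (-1.07 and -1.01). In TIAR-expressing cells EPRS was 1.99-fold lower than in HuR-expressing cells (adjusted p = 0.0109), and it was called without TIAR 2 (-1.11) and after normexp correction (-1.15). The dimmer probes of IARS, the isoleucine enzyme, gave -0.82 ± 0.13 and -0.35 ± 0.20 in TIA1-expressing cells, the first past the threshold. CARS (0.13 ± 0.15), LARS (-0.01 ± 0.10), NARS (-0.03 ± 0.11) and SARS (-0.24 ± 0.10) did not pass it. Under normexp, quantile normalization, both together and the authors' values, 9 of the 13 charging genes passed the adjusted p in the lower direction each time, but without HuR 1 this fell to 2, without HuR 2 to 1, with all 8 arrays in 1 fit to 2 and with no filter to 1. The median over the 13 ran from -0.87 to -0.62 over all of these settings. Of the 11 with a promoter in the table, 5 of 7 with the composite element and 3 of 4 without it were lower in TIA1-expressing cells.

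Related lists of charging genes were set beside the 33. Of 11 other cytosolic synthetases and scaffold proteins of the multisynthetase complex, 6 were lower in TIA1- than in HuR-expressing cells at an adjusted p under 0.05, led by VARS (-1.15 ± 0.11) and the scaffold protein AIMP2 (-1.04 ± 0.12). The same held for 11 of 17 mitochondrial synthetases, with a median of -0.78. These were 54.5% and 64.7% of the 2 lists, against 19.5% of all genes. NARS2 (-1.38 ± 0.22), EARS2 (-1.12 ± 0.11) and LARS2 (-1.10 ± 0.10) were called. In TIAR-expressing cells 2 of the 11 cytosolic (18.2%) and 9 of the 17 mitochondrial genes (52.9%) were lower, against 13.4% of all genes, and in neither comparison did a gene of these 2 lists pass the threshold in the higher direction (limma; 6 and 13 genes in the TIA1 and 6 and 11 in the TIAR comparison had an unadjusted p under 0.05 in either direction). Without HuR 1 or without HuR 2 the counts at the adjusted p fell in both comparisons, and so did the share of all genes in the lower direction.

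**Figure D4:**
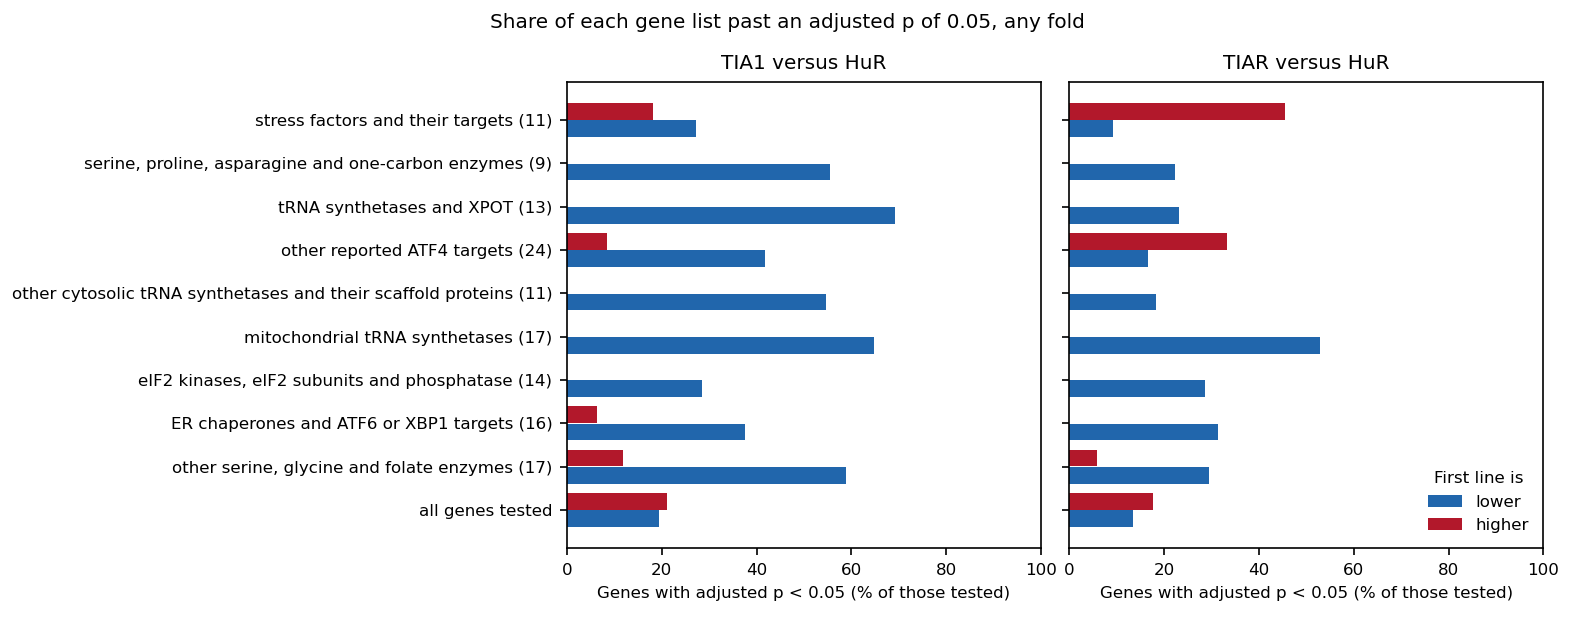
Share of each gene list (y axis, number of genes tested in brackets) with an adjusted p under 0.05 at any fold (x axis, percent), red for higher and blue for lower in the first line named, for TIA1 versus HuR and TIAR versus HuR. Of the charging genes 69.2% and of the mitochondrial synthetases 64.7% were lower in the TIA1 comparison, against 19.5% of all genes tested, and 45.5% of the stress genes were higher in the TIAR comparison, against 17.6%. The bars use all arrays, and without HuR 1 or HuR 2 they came to 2 or 1 of 13, 3 or 2 of 17 and 1 or 0 of 11 genes.

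TIAR- and TIA1-expressing cells differed from each other at 3 of the 33 genes, NUPR1, PCK2 and AARS, 1 from each group and each higher in TIAR-expressing cells. Calls at 2-fold covered 1.43% of all genes in the higher and 0.977% in the lower direction, and calls at any fold 2% and 1.52%. The fitted difference was above 0 for 29 of the 33 genes, with medians of 0.28 over the stress genes, 0.25 over the enzymes and 0.28 over the charging genes, and 0.01 over all genes tested. The 4 genes with a value below 0 were charging genes, MARS, LARS, SARS and EPRS, between -0.21 and -0.06. ATF5 (0.68 ± 0.12) and CHAC1 (0.77 ± 0.13) came close to the threshold, at an adjusted p of 0.0586 and 0.0580, and the dimmer CHAC1 probe passed it short of a call (0.93 ± 0.11, adjusted p = 0.0358). With no filter on dim probes none of the 3 calls remained, and over all genes 0 were called higher and 0 lower. With all 8 arrays in 1 fit PCK2 alone remained, and over all genes 94 were called higher and 57 lower. The calls were also lost when any 1 of the 4 arrays was left out, which leaves 1 array for a line. Calls over all genes fell then as well.

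Against GFP the 33 genes could not be placed with the same precision, since the 2 GFP arrays differed. In the limma test 0 of the 33 were called in each of the 3 comparisons, with 6 genes at an unadjusted p under 0.05 for HuR, 4 for TIA1 and 7 for TIAR, and the methods' t-test gave 0, 1 and 0. The shares of all genes called were 0% in both directions for HuR, 0.00482% in each direction for TIA1 and 0% in both for TIAR. Standard errors were larger than between the other lines. Their median over genes, with 1 probe per gene, was 0.29 for HuR and 0.32 for TIA1 and TIAR. It was 0.12 for TIA1 or TIAR versus HuR and 0.14 for TIAR versus TIA1. Without GFP 1 the median over all genes was -0.001 for HuR minus GFP, 0.01 for TIA1 minus GFP and 0.02 for TIAR minus GFP. Without GFP 2, where GFP 1 alone stood for its line, these medians were 0.26, 0.23 and 0.23. PCK2 came nearest to a call with all arrays, at -2.47 ± 0.28 in TIA1-expressing cells (adjusted p = 0.0511).

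Over the groups, the median of TIA1 minus GFP was -0.03 for the charging genes and 0.17 for the enzymes. Its sign turned with the GFP array used, since the charging genes had -0.42 and the enzymes -0.20 without GFP 1, and 0.30 and 0.57 without GFP 2. The median of HuR minus GFP was 0.56 for the charging genes, 0.57 for the enzymes and 0.48 for the stress genes, against 0.10 for all genes, and stayed above 0 in each of 13 settings, down to 0.21, 0.21 and 0.10. The all-gene median moved too, and under quantile normalization the enzyme median of 0.21 stood beside 0.20 for all genes, and under normexp with quantile normalization the stress median of 0.16 beside 0.13. TIAR minus GFP was above 0 for all 11 stress genes in the main setting, though none passed the adjusted p. Under quantile normalization, with or without normexp, with the authors' values and without GFP 2, 1 of the 11 was below 0. The stress median of 0.78 ran from 0.69 to 0.85 over the same settings. The median over all genes was 0.10, and 0.20 under quantile normalization.

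By mean level over the 2 arrays, the line with the highest signal was HuR for 11 of the 13 charging genes, TIAR for 8 of the 11 stress genes and HuR for 5 of the 9 enzymes. TIA1 was highest for none of the 33 and lowest for 9, and GFP was lowest for 21, a count that rests in part on GFP 1. For most genes neighbouring lines in this order did not differ beyond the threshold. Since every value is relative to the other RNAs of its array, fewer cells that make an mRNA and less of it per cell cannot be told apart.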

How the data were processed

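RNA of 4 FT293 lines was measured on 8 Agilent one-colour arrays, 2 per line. The scanner files deposited by the authors hold processed signal intensity values, background-subtracted and detrended by Feature Extraction 10.7.3.1 without normalization between arrays. A series table deposited by the authors holds log2 values whose medians were 7.23 to 7.24 for 3 lines and 7.08 for TIAR. By their quantiles, 6 of its columns were normalized to one distribution and the 2 TIAR columns to another. Its background correction is not given in the sources used here.

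Here log2 signals were scaled to the array's 75th percentile, outlier spots were dropped and spots of a probe averaged. A probe was tested if either compared line had it well above background on its 2 arrays, with tests made on the 4 arrays of the pair with limma 3.58.1 (lmFit, eBayes; R 4.3.3) and Benjamini-Hochberg adjustment over all probes, 28040 to 29096 per comparison. The share of all genes called counts gene names by the same choice of probe. Plots used matplotlib 3.10.9. The limma step was tested on simulated data. No saturated spot was found, and the number of arrays limits the precision.

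The 33 genes and the other lists were chosen with earlier results of these data known. Values on every array are given for genes called in at least 1 comparison, and from each other list at most the 3 called genes with the largest change were to be named. AMT was named beyond this rule. Alternatives were normexp (offset 50), quantile normalization, both, the authors' values, no filter, a stricter filter (above background on all 4 arrays), 1 fit over the 8 arrays, the replicate number as a block, any fold, any probe, leaving out each array, and the paired t-test of the methods. Positions of probes follow the array's hg19 design file, and no annotation of that build was used, so probes were not assigned to exons or untranslated regions.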

Additional observations from a re-analysis of the deposited data

How the results depend on the processing

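The 12 calls at 2-fold were recomputed 144 times, and 48 of these lost the call. The other 21 fold changes past the adjusted p were recomputed 252 times, of which 99 lost the adjusted p and 9 gained a 2-fold call. No sign changed. Leaving out 1 array gave 2 to 6 called genes for TIA1 versus HuR (5 with all arrays), 0 to 6 for TIAR versus HuR (4), 0 to 14 for HuR versus GFP (0), 0 to 3 for TIA1 versus GFP (0), 0 to 7 for TIAR versus GFP (0) and 0 throughout for TIAR versus TIA1 (3). Leaving out a GFP array also raised the calls over all genes in each comparison with GFP. With all 8 arrays in 1 fit the numbers among the 33 were, in the order of comparisons above, 3, 1, 1, 4, 4 and 1. Over all genes this fit called 1132 higher and 805 lower for TIA1 versus HuR, and 869 and 405 for TIAR versus HuR. Against GFP it called 382 and 435 for HuR, 1195 and 746 for TIA1, and 916 and 375 for TIAR. For TIAR versus TIA1 it called 94 and 57. In the main setting at any fold, 19 of the 33 passed for TIA1 versus HuR and 11 for TIAR versus HuR. The methods' t-test gave 3 for TIA1 versus HuR, 2 for TIAR versus HuR and 1 for TIA1 versus GFP, and after Benjamini-Hochberg adjustment 0 in every comparison. For TIA1 versus GFP, normexp and the stricter filter each gave 1 (PCK2). With no filter on dim probes TIAR versus TIA1 had 0. The stress median of TIA1 minus HuR, -0.05, was 0.001 with normexp. Over all genes, 1635 were called higher and 1125 lower for TIA1 versus HuR, against 999 and 629 with normexp and 754 and 540 with the authors' values. For TIAR versus HuR they were 1522 and 659, against 839 and 405, and 620 and 351, and 483 and 65 without HuR 1 and 378 and 47 without HuR 2. For TIAR versus TIA1 they were 297 and 203, against 132 and 115 with normexp and 129 and 110 with the authors' values. The cause of these shifts was not tested.

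The replicate numbers were not taken as pairs, since the correlation of replicate differences between lines ran from -0.09 to 0.18 and the labels name no shared batch. With the replicate block, 1 gene was called for TIA1 versus GFP (PCK2) and 0 for TIAR versus TIA1, and the other counts were as without it.

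With 2 arrays per line, a gene measured at 2-fold can fall on either side of the threshold, as PSAT1, MARS, DDIT3, EPRS and YARS did.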

Other observations

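Other genes that ATF4 is reported to control were also on the array, among them amino acid transporters, secreted factors, transcription factors and enzymes. Of 24 such other targets, 10 were lower and 2 higher in TIA1- than in HuR-expressing cells at an adjusted p under 0.05 (limma), and 8 were higher and 4 lower in TIAR-expressing cells. SLC7A11, the cystine transporter, gave 2.45 and 2.50 on the HuR arrays, 0.43 and 0.66 on the TIA1 arrays, 2.03 and 1.36 on the TIAR arrays and 0.78 and 0.90 on the GFP arrays. It was lower in TIA1- than in HuR-expressing cells (-1.93 ± 0.12, adjusted p = 0.00249), and the GFP arrays lay just above those of TIA1. FGF21, a secreted hormone, was higher in TIAR-expressing cells (1.67 ± 0.18, adjusted p = 0.00903) and had -0.46 ± 0.34 in TIA1-expressing cells. KLHL24, an adaptor of a ubiquitin ligase, was higher than in HuR-expressing cells in both TIA1- (1.61 ± 0.11) and TIAR-expressing cells (1.49 ± 0.10).

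Of 17 other serine, glycine and folate enzymes, 10 were lower and 2 higher in TIA1-expressing cells, with MTHFD1L, a mitochondrial folate enzyme, at -1.32 ± 0.14 and GCSH, of the glycine cleavage system, at -1.45 ± 0.36. Of 14 genes of the eIF2 kinases, eIF2 and its exchange factor and phosphatase on the array, 4 were lower in each TIA line than in HuR-expressing cells. EIF2B3 (-1.33 ± 0.09 with TIA1) and EIF2B5 (-1.21 ± 0.13 with TIAR), both subunits of the exchange factor that phosphorylated eIF2 inhibits, were called. Of 16 endoplasmic reticulum chaperones and targets of ATF6 or XBP1, 6 were lower and 1 higher with TIA1, and 5 were lower with TIAR. For all genes tested 19.5% were lower and 21.2% higher with TIA1, and 13.4% lower and 17.6% higher with TIAR. These counts also rested on both HuR arrays. Without HuR 1 or HuR 2, 7 or 5 of the 24 other targets were lower and 2 higher with TIA1, 3 of the 17 serine, glycine and folate enzymes were lower, and 1 gene each of the eIF2 and chaperone lists. With TIAR 1 of the 24 other targets was higher without HuR 1 and none without HuR 2, and no gene of these 4 lists was lower.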
